A study of Mus musculus with 22 samples.

Results

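The genes described here are 10 protein-coding genes of the mouse mitochondrial genome, taken by symbol: mt-Nd1, mt-Nd2, mt-Nd4, mt-Nd5, mt-Nd6, mt-Cytb, mt-Co1, mt-Co2, mt-Co3 and mt-Atp6. They are 10 of the 22623 genes of the RNA-Seq tables and of the 23081 genes of the Ribo-Seq tables, and 7 of them had mRNA reads. The study asked how the RNA-binding proteins Msi1 and Msi2 alter mRNA levels and translation in neural stem cells (NSCs) cultured from mouse embryonic cortex. RNA-Seq measured mRNA (14 libraries) and Ribo-Seq measured ribosome-protected fragments, or footprints (8 libraries). Every condition had 1 library, apart from untreated tetO-Msi1 cells at E13.5, which had a pair of technical replicates that were combined.

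The tetO-Msi1 and tetO-Msi2 lines overexpress Msi1 or Msi2 when doxycycline (Dox) is given, and KH2 cells, labelled as the control line, received Dox as well. For RNA-Seq, NSCs of KH2, tetO-Msi1 and tetO-Msi2 at E12.5 and of tetO-Msi1 at E13.5 were grown without Dox or with Dox at 1 µg/ml, with a time point of 72 h, and untreated KH2 cells were also sequenced at E13.5. Line C4 is floxed at both Msi1 and Msi2 and carries Cre, and line C1 is floxed at both genes and lacks Cre. Both were sequenced at E12.5 without and with 4-hydroxytamoxifen (4-OHT), with a time point of 48 h. For Ribo-Seq, E12.5 cells of C1, C4, KH2 and tetO-Msi1 were used, with and without their treatment. Each line stands for its genotype alone, and the comparisons below use pairs of libraries from different lines or stages in place of replicates.

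The mitochondrial genome is transcribed from both strands as long precursors. These are cut, mostly at tRNAs, into mRNAs, most of which receive a short poly(A) tail. The tail of each mRNA, that of mt-Nd6 included, was not measured here. The mRNAs are translated by mitochondrial ribosomes into core subunits of the respiratory chain: Nd subunits of complex I, Cytb of complex III, Co subunits of complex IV and Atp6 of the ATP synthase. Dox belongs to the tetracyclines, which bind bacterial ribosomes and also inhibit the mitochondrial ribosome, so it is a treatment with a known action on the organelle apart from its use as an inducer.

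The genome sequence of the build the files use (mm9) shows where each mRNA ends and which parts of it also occur in the nucleus. 9 of the 10 genes lie on the plus strand of the annotation, and mt-Nd6 lies on the minus strand. The annotated coding sequences of mt-Co3 (chrM:8607-9390), mt-Nd4 (chrM:10167-11544) and mt-Cytb (chrM:14145-15288) end in a lone T, which the poly(A) tail turns into a stop codon. Their last 30 bases are shown because the libraries were made from polyA-selected RNA, with the bases of the stop codon that the genome encodes in capitals.
mt-Co3, chrM:9361-9390: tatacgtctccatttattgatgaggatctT
mt-Nd4, chrM:11515-11544: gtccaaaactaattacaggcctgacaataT
mt-Cytb, chrM:15259-15288: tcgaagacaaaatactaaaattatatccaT
The other 7 end in a complete TAA or TAG. The ends of mt-Nd5 and mt-Nd6 are shown because these genes run towards each other and share 14 bases (13552 to 13565), so that a read there can belong to either. The strand setting of the counting is not given in the sources used here, and reads of mt-Nd6 and of RNA antisense to it cannot be told apart in these counts.
mt-Nd5, chrM:13536-13565, plus strand: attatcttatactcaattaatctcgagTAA
mt-Nd6, chrM:13552-13581, minus strand: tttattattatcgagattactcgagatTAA

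A stretch of chromosome 1 (chr1:24618374-24623027) repeats positions 6390 to 11042 of the mitochondrial genome with 99.936% identity over 4654 aligned positions, with 2 substitutions and 1 gap. The substitution in mt-Co1 is A6393T, with the mitochondrial base given before the position on the mitochondrial genome and the base of the copy after it. Both sequences are printed from position 6390, with the differing base in capitals.
mt-Co1: ggaAttgttttatcca
chromosome 1 copy: ggaTttgttttatcca
mt-Co2, mt-Atp6 and mt-Co3 lie wholly inside the copied stretch, as do mt-Atp8, mt-Nd3 and mt-Nd4l. Of mt-Nd4 63.6% lies inside it, of mt-Co1 31.3%, and of the other 5 genes none. Other nuclear matches reach further. Of stretches of 35 nt, those with a nuclear copy at up to 2 mismatches made up 98.6% in mt-Co1, 71.1% in mt-Nd6 and 53.2% in mt-Cytb. They made up 47.8% in mt-Nd2, 47.6% in mt-Nd5 and 0.3% in mt-Nd1. At 0 mismatches the shares were 60.5, 3.5, 3.7, 11.5, 14.5 and 0% in the same order. A BLAST search of the genome found 8 nuclear matches of at least 1 kb, with any matches on 1 other chromosome left out of the count. Of these 8, the next most similar, on chromosome 2, had an identity of 97.362%.

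The libraries held 7889966 to 58435172 RNA-Seq reads and 657288 to 6381242 footprints counted in genes, of which 2.88 to 8.16% and 0.676 to 6.29% fell in mitochondrial coding genes. Msi1 mRNA went from 19.7 to 108 RPKM (reads scaled by gene length and library size) with Dox in tetO-Msi1 cells at E12.5 and from 49.5 and 51.6 (technical replicates) to 208 at E13.5, and Msi2 mRNA went from 23.2 to 128 in tetO-Msi2 cells. In C4 cells, 4-OHT went with 39.5 to 4.54 RPKM of Msi2, whereas Msi1, which was low in this line, was 9.46 and 9.42 over its whole counted length. In the library labelled C4 with 4-OHT the footprints of both genes were lower than without, 1.11 against 2.82 RPKM for Msi1 and 0.776 against 16.5 for Msi2. They were also lower with 4-OHT in C1 cells, which lack Cre, at 8.26 against 23.7 RPKM for Msi1 and 32.5 against 70.3 for Msi2. In the C1 pair the median gene fell as well, with a log2 change in footprint RPKM of -1.48, against -0.14 in C4. The fall in C1 therefore does not set Msi1 and Msi2 apart from other genes. Msi1 had 56 and 20 footprints in C4 without and with 4-OHT, too few for a firm check of the label. Of the neural stem markers, Sox2 (161 to 381 RPKM), Fabp7 (795 to 2690), Vim (705 to 2410) and Slc1a3 (163 to 496) were high in every library. Nes (19.9 to 163), Hes5 (6.97 to 229) and Hes1 (8.93 to 35.6) reached lower values. The neuronal marker Tubb3 was at 3.29 to 11.8 RPKM. Of the glial markers, Olig1 was at 154 to 697, Olig2 at 67.5 to 337 and Aldh1l1 at 58.5 to 203. Aqp4 was at 2.86 to 63.9 and Gfap at 0 to 151. Markers of microglia, endothelium, blood and fibroblasts summed to 0.190 to 0.833 RPKM. In the Ribo-Seq library of untreated KH2 cells, 66.7% of all counts came from Hes7, and the 10 leading nuclear genes held 77.6% (11.9 to 35.5% in the other 3 libraries of the tet lines and 5.97 to 6.83% in the floxed lines). In bulk samples, fewer cells of a type and less RNA per cell cannot be told apart.

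7 of the 10 mRNAs were among the most abundant of the tables. mt-Co1, the catalytic subunit of complex IV, ranked between 1 and 5 among all genes by RPKM in each library, and so did mt-Cytb, the cytochrome b subunit of complex III. mt-Nd6 ranged most, from rank 3 to rank 233. In the 6 E12.5 libraries of the KH2, tetO-Msi1 and tetO-Msi2 lines (the tet lines), mt-Co1 had a lowest, median and highest value of 2119, 2184 and 2376 RPKM, and mt-Cytb of 1181, 1801 and 2553. The complex I subunits were lower, with medians of 1096 RPKM for mt-Nd1, 1062 for mt-Nd6, 854 for mt-Nd2, 744 for mt-Nd5 and 322 for mt-Nd4. The ranges of mt-Nd1 (843 to 1416 RPKM), mt-Nd6 (829 to 1208), mt-Nd2 (438 to 1105) and mt-Nd5 (616 to 889) overlapped. mt-Nd4 (247 to 462 RPKM) lay below mt-Nd5 in all 6 libraries, on its full counted length. Where the reads were divided by only the 462 nt of the counted length outside the chromosome 1 copy, a calculation chosen after seeing the data, mt-Nd4 was at 714 to 1338 RPKM in these libraries, within the range of the other complex I mRNAs.

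mt-Co2 and mt-Co3 of complex IV and mt-Atp6 of the ATP synthase were listed at 0 reads in all 14 RNA-Seq libraries. The genes mt-Atp8 and mt-Nd4l were at 0 as well, and mt-Nd3 had 1 read in 1 library. These 6 are the genes that lie wholly inside the chromosome 1 copy, and the genes partly or wholly outside it all had reads. The footprints of the same genes were counted: mt-Co2 had 2175 to 8379 reads over the 8 libraries, mt-Atp6 2011 to 12390, and mt-Co3 2420 to 9362. How reads with several matches were treated is not given in the sources used here, and its part in the zeros was not tested. No statement on the mRNA or the translational efficiency of mt-Co2, mt-Co3 and mt-Atp6 is possible from these tables, and the mRNA levels of mt-Co1 and mt-Nd4 may not be comparable with those of the other genes for their length.

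**Figure D1:**
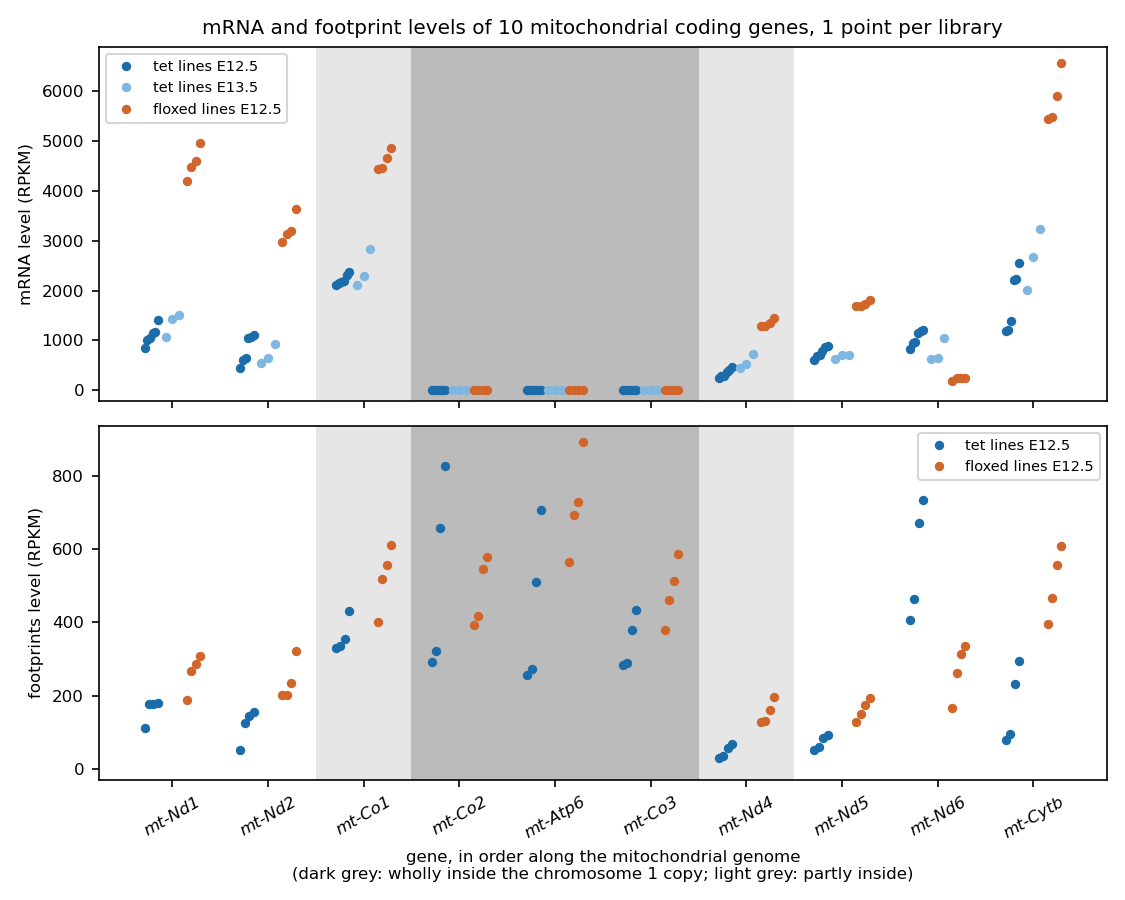
Levels of the 10 genes in RPKM (vertical axes, linear), for mRNA above and footprints below, with genes in order along the mitochondrial genome; each point is 1 library, with the technical replicates averaged, coloured by line type and stage. mt-Co2, mt-Atp6 and mt-Co3 sit at 0 in the mRNA panel and between 256 and 892 RPKM in the footprint panel.

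With Dox, the mRNAs of mt-Nd2, mt-Nd4 and mt-Cytb rose, in the KH2 control line as in the lines with a Msi transgene. mt-Nd2, a membrane subunit of complex I, went from 438 to 1054 RPKM in KH2 cells, from 602 to 1070 in tetO-Msi1 cells at E12.5, from 654 to 1105 in tetO-Msi2 cells and from 654 to 934 in tetO-Msi1 cells at E13.5. Each library with Dox was above all 4 without. How many of all genes separate in this way, here and for mt-Cytb and mt-Nd4 below, was not computed. Over the 4 pairs the log2 fold change was 0.82 ± 0.11 (SE, adjusted p = 0.011, edgeR quasi-likelihood test with the pair as a block), higher in 4 of 4 pairs.

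mt-Cytb mRNA went from 1202 to 2233 RPKM in KH2 cells, from 1181 to 2219 in tetO-Msi1 and from 1383 to 2553 in tetO-Msi2 cells at E12.5. At E13.5 it began higher, at 2681 RPKM, and was 3232 with Dox. The 3 pairs of E12.5 did not overlap between treated and untreated libraries, and the log2 fold change over all 4 pairs was 0.72 ± 0.11 (adjusted p = 0.018). mt-Nd4, another membrane subunit of complex I, went from 247 to 462, from 280 to 411, from 283 to 362 and from 530 to 725 RPKM in the same order of pairs. Its log2 fold change was 0.55 ± 0.09 (adjusted p = 0.027), and at E12.5 the treated libraries lay above the untreated ones.

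The other 4 mRNAs did not pass the test. mt-Nd1 had a log2 fold change of 0.19 ± 0.08 (adjusted p = 0.25) and mt-Nd5 of 0.23 ± 0.09 (adjusted p = 0.25). mt-Co1 went from 2376 to 2179, from 2161 to 2119 and from 2306 to 2190 RPKM at E12.5 and from 2827 to 2102 at E13.5. Its log2 fold change was -0.18 ± 0.08 (adjusted p = 0.32). It was lower with Dox in 4 of 4 pairs, but at E12.5 by little. Less the median gene, its log2 changes there were -0.084, -0.016 and -0.11, at percentiles 29.6, 47.3 and 31.6 of all genes. At E13.5 the value was -0.51, at percentile 6.76. mt-Nd6, encoded on the opposite strand, went from 829 to 1158, from 966 to 1185 and from 949 to 1208 RPKM at E12.5 but from 1051 to 635 at E13.5, so that its stages pointed in opposite directions and its log2 fold change was 0.09 ± 0.16 (adjusted p = 0.84). Of the 7 mRNAs tested, 3 were higher and 0 lower, against 0.214% of the 12167 genes tested higher and 0.296% lower. The median log2 fold change was 0.23 over the 7 and 0.00087 over all genes.

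These calls rest on few pairs. The share of all genes that separate treated from untreated libraries as mt-Nd2, mt-Cytb and mt-Nd4 did was not computed. Without the block 0 of the 7 passed, and DESeq2 called 2, mt-Nd2 and mt-Nd4. Without the tetO-Msi1 pair of E12.5, 0 genes of the table and 0 of the 7 passed, though the log2 fold changes of mt-Nd2, mt-Cytb and mt-Nd4 were then 0.81, 0.65 and 0.54. Without the E13.5 pair, 4 of the 7 passed, with mt-Nd6 at 0.38 ± 0.07. Within the pairs alone, where no test is possible, mt-Nd2 mRNA changed by at least 1.5-fold beyond the median gene at E12.5 in KH2, tetO-Msi1 and tetO-Msi2 cells, and so did mt-Cytb. In those pairs 0.886%, 3% and 2.59% of all genes were higher to that degree.

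**Figure D2:**
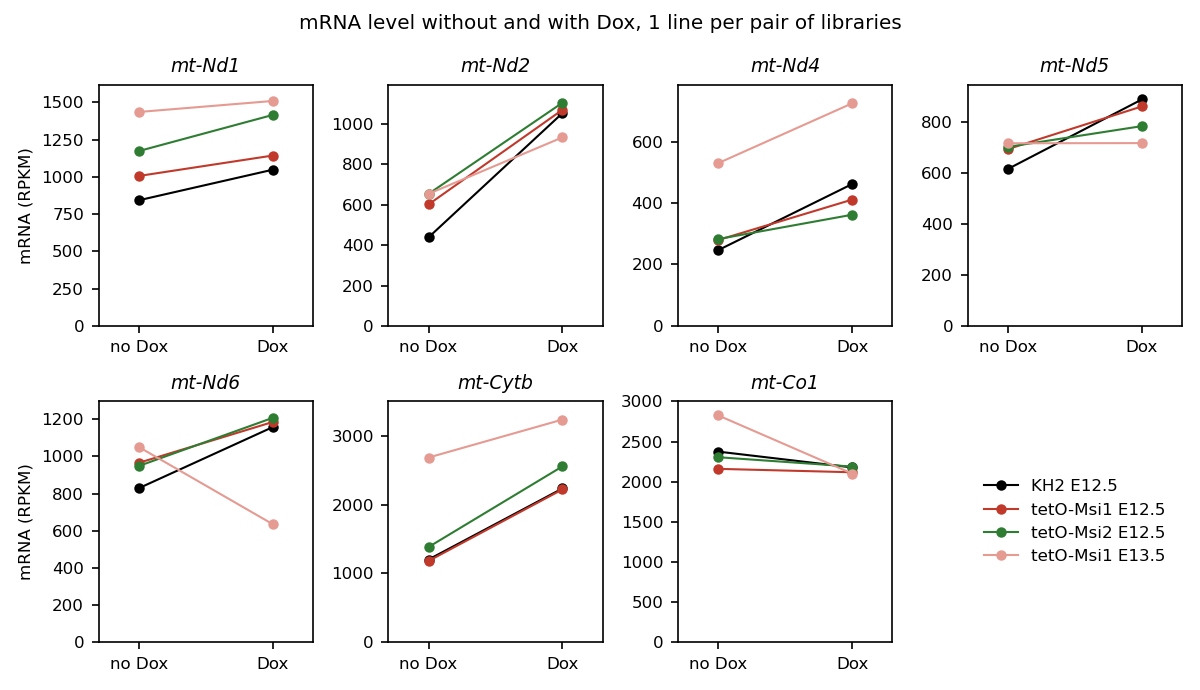
mRNA level in RPKM (vertical axes, from 0) without and with Dox for the 7 mitochondrial mRNAs with reads; each line joins the 2 libraries of 1 pair, and the untreated E13.5 point is the mean of the technical replicates. mt-Nd2, mt-Nd4 and mt-Cytb are higher with Dox in 4 of 4 pairs. mt-Co1 is lower in 4 of 4, by little at E12.5, and mt-Nd6 is higher in the 3 E12.5 pairs and lower at E13.5.

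The share of the reads of the 7 mRNAs that fell in mt-Co1 was lower with Dox and that in mt-Nd2 was higher. mt-Co1 took 45.0% of these reads in untreated KH2 cells and 31.2% with Dox, and over the 4 pairs 36.4 to 45.0% without and 27.3 to 31.2% with Dox. mt-Nd2 took 5.51 to 7.40% without Dox and 8.03 to 10.3% with Dox. These shares do not depend on the scaling between libraries. They put all 4 treated libraries below all 4 untreated ones for mt-Co1 and above them for mt-Nd2. The shares are parts of the same reads, so that of mt-Co1 falls when other mRNAs of the 7 rise. Its separation is therefore not independent of the rise of mt-Nd2, mt-Cytb and mt-Nd4. In RPKM, mt-Co1 with Dox was 0.92-, 0.98- and 0.95-fold in KH2, tetO-Msi1 and tetO-Msi2 cells at E12.5. It was 0.74-fold in tetO-Msi1 cells at E13.5.

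Whether the lines with a Msi transgene responded differently from KH2 was tested as an interaction. Of 12167 genes 0% were called in either direction by edgeR (584 at an unadjusted p under 0.05, and 0 called by DESeq2), and 0 of the 7 mitochondrial mRNAs. The additional log2 change in the tetO-Msi lines was -0.64 ± 0.18 for mt-Nd2 (adjusted p = 0.94), -0.53 ± 0.17 for mt-Nd4 (adjusted p = 0.95) and -0.28 ± 0.24 for mt-Cytb (adjusted p = 0.97), with a median of -0.45 over the 7 genes and -0.0021 over all genes. All 7 values were below 0. KH2 had 1 pair, so its Dox response cannot be told apart from the spread of those libraries.

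Nuclear genes for the upkeep and expression of the mitochondrial genome, for assembly of the respiratory chain and for the mitochondrial stress response were also tested with Dox. Only 1 passed, a stress response gene, where 0.214% of all genes were higher and 0.296% lower. Of the genes that transcribe or replicate mitochondrial DNA, 0 of 12 tested passed in either direction (median log2 fold change -0.0055), of those for mitochondrial RNA processing and stability 0 of 22 (median 0.0013), of the mitochondrial translation factors 0 of 16 (median -0.013) and of the assembly factors of the respiratory chain 0 of 25 (median 0.021). Of the mitochondrial stress response genes 1 of 25 rose and 0 fell (median -0.028). The gene that rose was Atf5, a transcription factor of that response, at 5.89 and 7.46 RPKM in KH2, 6.07 and 17.5 in tetO-Msi1 and 17.9 and 43.5 in tetO-Msi2 cells at E12.5, and 64.7 and 80.3 in tetO-Msi1 cells at E13.5, without and with Dox. Its log2 fold change was 0.84 ± 0.17 (adjusted p = 0.042).

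Footprints of mt-Cytb and mt-Nd4 also rose with Dox. mt-Cytb footprints went from 97.3 to 294 RPKM in KH2 cells and from 79.0 to 231 in tetO-Msi1 cells (log2 fold change 1.51 ± 0.34, adjusted p = 0.0027). mt-Nd4 footprints went from 36.9 to 57.4 and from 31.7 to 69.0 RPKM (0.82 ± 0.21, adjusted p = 0.013). For both genes the treated libraries lay above the untreated ones, with 2 libraries on each side. The share of all genes whose footprints separate in this way was not computed. These were 2 of 10 genes tested, against 0.312% of 11526 genes higher and 0.321% lower.

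The remaining 8 had positive log2 fold changes that did not pass. mt-Co2, whose mRNA could not be measured, had 294 and 827 footprint RPKM in KH2 and 322 and 656 in tetO-Msi1 cells without and with Dox (1.20 ± 0.41, adjusted p = 0.36). mt-Atp6 had 273 and 707 in KH2 and 256 and 510 in tetO-Msi1 cells (1.12 ± 0.39, adjusted p = 0.39). mt-Co1 had 336 and 431 in KH2 and 329 and 355 in tetO-Msi1 cells (0.18 ± 0.45, adjusted p = 0.9998). mt-Nd2 went from 52.8 to 156 RPKM in KH2 cells but from 125 to 144 in tetO-Msi1 cells, so that the pairs differed (0.82 ± 0.26, adjusted p = 0.20). mt-Nd5, mt-Nd6, mt-Co3 and mt-Nd1 had values of 0.61, 0.63, 0.44 and 0.26. In the pairs alone, 13.6% of all genes in KH2 and 14.6% in tetO-Msi1 cells had footprints at least 1.5-fold higher than the median gene, so that a footprint change of this size is common there.

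The calls in footprints with Dox differed between settings. The SE reported above came from the trend over all genes, not from the spread of each gene between the pairs. With DESeq2's size factors in edgeR 0 of the 10 passed, and without the line block 0. DESeq2 itself called 3, mt-Cytb, mt-Co2 and mt-Atp6, and not mt-Nd4. When the 10 leading nuclear genes of each library were left out, a step chosen after seeing the data, 5 passed: mt-Cytb, mt-Co2, mt-Atp6, mt-Nd4 and mt-Nd2. The log2 fold changes themselves moved little, to 1.52 for mt-Cytb, 1.21 for mt-Co2, 1.13 for mt-Atp6, 0.83 for mt-Nd4 and 0.82 for mt-Nd2.

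**Figure D3:**
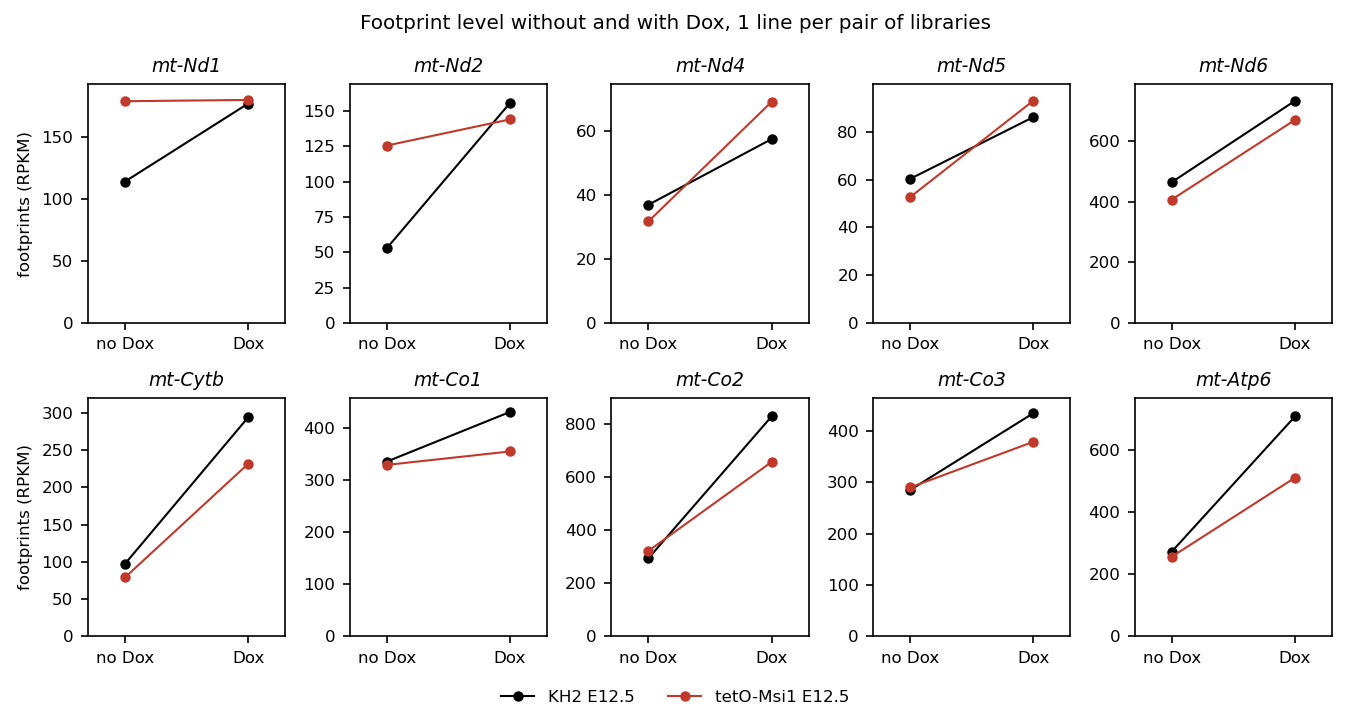
Footprint level in RPKM (vertical axes, from 0) without and with Dox for the 10 genes in KH2 and tetO-Msi1 cells at E12.5; each line joins the 2 libraries of 1 pair. The values of the 10 genes are higher with Dox in both pairs. The amounts run from 1.01-fold for mt-Nd1 in tetO-Msi1 cells to 3.02-fold for mt-Cytb in KH2 cells. For mt-Nd1 in tetO-Msi1 cells the log2 change of 0.0083 is within counting error (-0.077 to 0.093), so no rise is shown there. The share of all genes that are higher in both pairs was not computed.

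Translational efficiency (TE), the footprint RPKM divided by the mRNA RPKM, did not change detectably with Dox. Of the 7 genes with both measurements 0 passed, against 0.0396% of 10111 genes higher and 0.0396% lower. mt-Cytb had the largest log2 change of the 7, 0.58 ± 0.28, with TE at 0.0809 and 0.132 in KH2 and 0.0669 and 0.104 in tetO-Msi1 cells. For mt-Nd2 the lines went opposite ways, from 0.120 to 0.148 in KH2 and from 0.209 to 0.135 in tetO-Msi1 cells (-0.26 ± 0.36). For mt-Nd4 they also did, from 0.149 to 0.124 in KH2 and from 0.113 to 0.168 in tetO-Msi1 cells (0.06 ± 0.24). The standard errors of the 7 genes, 0.24 to 0.36 on the log2 scale, set what could have been seen with 2 pairs.

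The level of TE separated mt-Nd6 from the other 6 genes. Its TE was 0.422 to 1.62 over the 8 Ribo-Seq conditions, between percentile 75 and percentile 97.4 of the genes measured in each. The other 6 had a TE between 0.0413 and 0.209, and each was at or below percentile 41.5, with medians of 0.085 for mt-Cytb, 0.0973 for mt-Nd5, 0.102 for mt-Nd1, 0.112 for mt-Nd2, 0.119 for mt-Nd4 and 0.139 for mt-Co1. In each condition mt-Nd6 was above all of these 6. The highest TE of mt-Nd6 came with its lowest mRNA (195 RPKM, untreated C1 cells) and its lowest TE with 966 RPKM (untreated tetO-Msi1 cells). Its highest mRNA, 1185 RPKM in tetO-Msi1 cells with Dox, went with a TE of 0.566, and 247 RPKM in untreated C4 cells with 0.674. TE has the mRNA as its divisor, so the 2 are not independent. The median TE over all genes was also highest in untreated C1 cells, at 0.572. The mRNA was measured in polyA-selected RNA with an unknown strand setting. The part of either in this separation was not tested. Whether reads inside the chromosome 1 copy were counted for mt-Co1 and mt-Nd4 mRNA was not tested. If they were not, the TE of both genes is overstated. The part of nuclear matches outside the chromosome 1 copy, which other genes have too, was not tested either. Mitochondrial and cytosolic ribosomes were not separated, and how well each kind was recovered was not tested.

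With 4-OHT, none of the 7 mitochondrial mRNAs passed the test, in a comparison in which 3.14% of 11626 genes were higher and 2.36% lower. Their log2 fold changes lay between -0.07 for mt-Nd5 and 0.13 for mt-Nd6, with a median of 0.01. mt-Cytb was at 5477 and 5432 RPKM in C1 cells and 5898 and 6552 in C4 cells without and with 4-OHT. mt-Nd2 was at 2965 and 3129 in C1 and 3192 and 3634 in C4 cells (0.10 ± 0.05, adjusted p = 0.28). Of the 5 nuclear lists named above, 0 genes passed in either direction with 4-OHT, of 12, 22, 16, 23 and 25 tested, and their medians lay between -0.026 and 0.035.

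Footprints of 9 of the 10 genes rose relative to other genes with 4-OHT over both lines, against 0.821% of 12426 genes higher and 0.113% lower. The log2 fold changes of the 9 ran from 1.09 ± 0.21 for mt-Atp6 to 1.27 ± 0.21 for mt-Co2, and mt-Nd1 had 0.99 ± 0.29 (adjusted p = 0.17). DESeq2 called 1 of the 10, mt-Nd6, and without the line block 0 passed. The deposited values behind them moved less. mt-Co2 footprints were at 419 and 578 RPKM in C1 cells and 393 and 546 in C4 cells, mt-Cytb at 466 and 607 and at 395 and 556, and mt-Nd1 at 189 and 287 in C1 but 310 and 268 in C4 cells. Those of mt-Nd6, the gene DESeq2 called, fell from 315 to 262 RPKM in C1 cells and rose from 166 to 335 in C4 cells.

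Relative to other genes, the change was larger in line C1, which lacks Cre, than in C4. In C1 cells the median gene had a log2 change in footprint RPKM of -1.48, and the 10 genes had changes of -0.27 to 0.68, which is 1.21 to 2.15 above that median, so that 10 of 10 were at least 1.5-fold higher than the median gene, against 15.2% of all genes. In C4 cells the median gene was at -0.14 and the 10 genes lay between -0.07 for mt-Nd1 and 1.15 for mt-Nd6 relative to it. The untreated C1 library stood apart from the others of the floxed lines. It had 6381242 counted footprints, of which 1.55% were mitochondrial (4.78 to 6.29% in the other 3), and a median TE over all genes of 0.572 (0.13 to 0.213 in the other 3). In the C4 pair, which does not use that library, 16.5% of all genes had footprints at least 1.5-fold higher than the median gene, and so had 5 of the 10: mt-Nd6, mt-Cytb, mt-Co1, mt-Co2 and mt-Nd5. For TE, 0 of the 7 genes and 0% of 10490 genes in either direction passed in edgeR (934 at an unadjusted p under 0.05; DESeq2 called 5 genes). The difference between C4 and C1 in the response to 4-OHT was not tested, since each line had 1 pair.

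**Figure D4:**
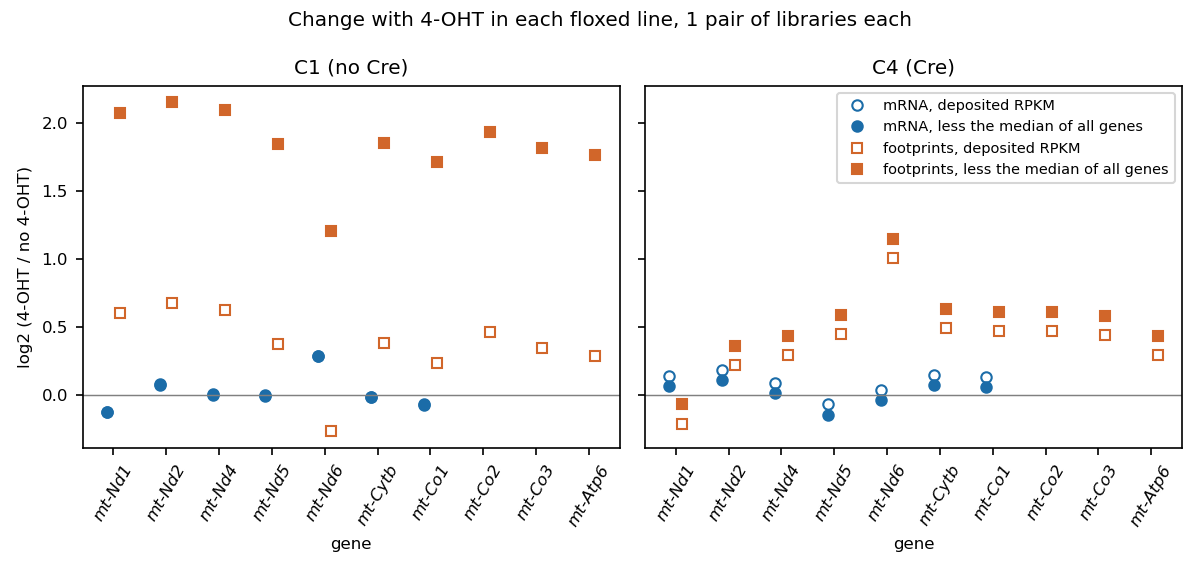
Log2 change with 4-OHT of the mRNA (circles) and footprints (squares) of each gene in line C1, without Cre, and line C4, with Cre; open symbols are ratios of deposited RPKM and filled ones are the same less the median over all genes, and in C1 the circles of both kinds coincide. Filled squares stand at 1.21 to 2.15 in C1 and at -0.07 to 1.15 in C4, while the mRNA symbols lie near 0.

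Between stages, 5 of the 7 mRNAs were lower in untreated E13.5 than in untreated E12.5 cultures of KH2 and tetO-Msi1 relative to other genes, in a comparison in which 25.6% of 11893 genes were higher and 25.2% lower. The log2 fold changes were -1.09 ± 0.14 for mt-Nd6, -0.94 ± 0.11 for mt-Nd5, -0.80 ± 0.14 for mt-Co1, -0.75 ± 0.10 for mt-Nd2 and -0.54 ± 0.12 for mt-Nd1, with adjusted p from 6.8e-05 to 0.0030. mt-Nd4 (-0.07 ± 0.11) and mt-Cytb (-0.0086 ± 0.14) did not pass. In deposited RPKM the sizes and signs are different, because the median gene was 1.07 higher on the log2 scale at E13.5 in KH2 and 0.925 higher in tetO-Msi1 cells. mt-Nd5, for instance, was at 616 and 624 RPKM in KH2 and 694 and 717 in tetO-Msi1 cells at E12.5 and E13.5. mt-Cytb was at 1202 and 2005 in KH2 and 1181 and 2681 in tetO-Msi1 cells. The summed RPKM of the glial markers was 300 to 442 in the tet lines at E12.5 and 801 to 1123 at E13.5, and that of the neural stem markers 2045 to 2719 and 5005 to 5133. These sums are in deposited RPKM and carry the same shift of the median gene, so on their own they do not show a change in cell types. The part of cell types in the stage difference was not tested, and stage cannot be told apart from culture and sequencing run.

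Between the floxed and the tet lines, 4 mRNAs were higher and 1 was lower in untreated E12.5 cells, against 33% of 12211 genes higher and 33.3% lower. The fold changes are relative to other genes: in deposited RPKM the median gene was 1.11 higher on the log2 scale in the floxed lines, and mt-Nd1 2.18 higher. mt-Nd1 was at 843, 1006 and 1173 RPKM in KH2, tetO-Msi1 and tetO-Msi2 cells and at 4586 and 4480 in C1 and C4 cells (log2 fold change 1.09 ± 0.18). mt-Nd2 had 1.36 ± 0.20, mt-Nd4 1.21 ± 0.13 and mt-Cytb 1.10 ± 0.16, with adjusted p of 0.00028 to 0.0021 for the 4 genes.

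mt-Nd6 went the other way. It was at 829, 966 and 949 RPKM in the untreated tet lines and at 195 and 247 in C1 and C4 cells, a log2 fold change of -3.13 ± 0.17 (adjusted p = 3.3e-05), and it took 5.003 to 5.67% of the reads of the 7 mRNAs in the tet lines against 0.373 and 0.461% in the floxed lines. In deposited RPKM the log2 difference of mt-Nd6 was -2.06. mt-Co1 (-0.08 ± 0.16) and mt-Nd5 (0.30 ± 0.15) did not pass, and in deposited RPKM mt-Co1 was 0.998 higher and mt-Nd5 1.38 higher on the log2 scale. The mt-Nd6 footprints, at 465 and 407 RPKM in untreated KH2 and tetO-Msi1 cells and 315 and 166 in C1 and C4 cells, differed less than its mRNA, without a test. Line type goes together with the experiment (Dox or 4-OHT), so line, culture and sequencing cannot be told apart here.

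Over the 13 RNA-Seq conditions, the nuclear genes whose log2(RPKM + 0.5) was among the most like the mean of the mitochondrial mRNAs included Zfp770 (Pearson r = 0.960), C1galt1c1 (0.959), Fcho2 (0.958) and Ssb (0.957). The points share the division into floxed and tet lines: Ssb had medians of 59.9 RPKM in the tet lines at E12.5, 81.4 at E13.5 and 180 in the floxed lines.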

How the data were processed

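Mouse NSC libraries (14 RNA-Seq, 8 Ribo-Seq) were grouped by their labels. The authors deposited read counts per gene, not normalized, and RPKM values made from them on a number of reads constant within a library, for RNA-Seq per gene and for Ribo-Seq over coding exons. The submitters' processing notes name Bowtie, TopHat and mm9. The counts of the technical replicates (chi-square per degree of freedom 1.69, against 11.5 between untreated KH2 and tetO-Msi1 cells at E12.5) were summed and their RPKM averaged.

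Counts were tested with edgeR (4.0.16; quasi-likelihood test, TMM, genes at CPM 1 or more in 2 or more libraries, Benjamini-Hochberg adjustment over all genes tested, threshold 0.05), with the pair, or for TE the line within each assay, as a block. Floxed and tet lines were compared without a block. As no condition had biological repeats, p-values rest on the spread between lines and stages, which edgeR pools over genes. For Dox and footprints the prior degrees of freedom, the weight of that pool, were infinite against 1 residual degree. A gene's own spread between the lines therefore did not set its p-value there. For 4-OHT and footprints they were 21.6 against 1. Changes in 1 pair are log2 ratios of deposited RPKM. The scripts were tested on simulated data. Sequences came from the mm9 genome, and copies from BLAST (2.17.0). The alternatives were other normalizations, DESeq2 (1.42.0), no CPM filter, no block, a pair or replicate left out, and 0.5 added to RPKM. R 4.3.3, Python 3.11.15 and matplotlib 3.10.9 were used. All 10 genes were named; of other lists, up to 5 past the threshold, largest change first, and the 5 genes most like the mean of the mRNAs, of which 1 is not reported here. The genes and lists were chosen with earlier results of these data known. Symbols missing from the tables were not analysed here.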

Additional observations from a re-analysis of the deposited data

Results flagged for a closer look

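The values below are log2 changes less the median of all genes, and in each case the pairs of libraries being compared went opposite ways beyond counting error. None of these differences was tested. With Dox, the E13.5 pair of tetO-Msi1 cells went down where the 3 E12.5 pairs went up for the mRNAs of mt-Nd6 (-0.81 against 0.31 to 0.52), mt-Nd5 (-0.083 against 0.13 to 0.57) and mt-Nd1 (-0.012 against 0.20 to 0.36).

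The TE response to Dox in tetO-Msi1 cells was opposite to that in KH2 cells for mt-Nd2 (-0.68 against 0.15), mt-Nd1 (-0.22 against 0.17), mt-Nd4 (0.52 against -0.41) and mt-Nd5 (0.46 against -0.16). The Ribo-Seq library of untreated KH2 cells, in which Hes7 held 66.7% of the counts, is part of these values, and its part was not tested.

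With 4-OHT, C4 cells were opposite to C1 cells for the footprints of mt-Nd1 (-0.068 against 2.08) and its TE (-0.12 against 2.19). They were also opposite, with small values, for the mRNAs of mt-Nd1 (0.07 against -0.13), mt-Nd6 (-0.034 against 0.29), mt-Co1 (0.058 against -0.067) and mt-Cytb (0.0775 against -0.0099). From E12.5 to E13.5, mt-Cytb mRNA was at 0.26 in untreated tetO-Msi1 and -0.33 in untreated KH2 cells.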

How the results depend on the processing

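The number of mitochondrial genes called was recomputed under each alternative. For the Dox effect on mRNA it was 3 in the fit reported, 0 without the line block and 0 to 4 when 1 pair was left out. For Dox and footprints it was 2 as reported, 0 with DESeq2's size factors, 0 without the line block, 3 with DESeq2 (mt-Cytb, mt-Co2 and mt-Atp6) and 5 without the leading nuclear genes (chosen after seeing the data). For 4-OHT and footprints it was 9 as reported, 1 with DESeq2 and 0 without the block. For 4-OHT and TE it was 0 as reported and 1 with DESeq2. The number of TE changes of at least 1.5-fold in a pair was 7 of 28 on deposited values and 11 after subtracting the median. The calls for 4-OHT and mRNA, for the stage, for floxed against tet lines, for Dox and TE and for the interaction stayed within 1.5 times the reported number. The total of genes called with Dox was 62 as reported, 608 with no CPM filter and 191 with DESeq2.

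Of 96 log2 changes in 1 line alone, without a test, 60 moved by more than the SE of the fit and 11 had the other sign. Of 453 log2 changes of single genes refitted with a test, 402 kept their direction and side of the threshold, 31 lost the call, 12 gained it and 8 turned sign: mt-Nd6 with Dox was -0.060 without the KH2 pair (-0.060 to 0.379 over the pairs left out), mt-Co1 in the interaction was 0.020 without the E13.5 pair (-0.227 to 0.020 over the pairs left out), mt-Co1 with 4-OHT was 0.0040 with no CPM filter, mt-Cytb between stages was 0.0165 with no CPM filter and 0.0215 without the block, and mt-Nd1 TE with Dox was 0.0077 with DESeq2's size factors, 0.0067 with DESeq2 and 0.0132 with TMM over both assays together. The causes were not tested. No paired analysis was possible because the labels give no replicate numbers shared between groups, other than the pairing by line and stage that the fits already use. How reads shared with nuclear copies were mapped was not tested, and p-values rest on 2 to 4 pairs of different lines.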
